A study of Mus musculus with 2 samples.

Results

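The genes described here encode 8 secreted antagonists of bone morphogenetic proteins (BMPs) and activins (*Nog*, *Grem1*, *Chrd*, *Chrdl1*, *Chrdl2*, *Fst*, *Fstl3* and *Sostdc1*) and the membrane pseudoreceptor *Bambi*. They were found by their gene symbol in a table of 24421 rows of RNA-Seq counts, and each of the 9 symbols matched 1 row. The table compared 1 library of primary chondrocytes, released by collagenase from the rib cartilage of newborn mice, with 1 library of primary dermal fibroblasts from newborn dorsal skin. Both cell types were taken up in DMEM with fetal bovine serum, the chondrocytes were used at low passage, and no treatment is named for either. Genotype, strain and the number of animals behind each library are not given in the sources used here. The study used these libraries to choose, among factors with motifs in its enhancers of interest, those more abundant in cartilage cells. With 1 library per cell type, none of the differences below has a replicate check. All intervals describe counting error alone, and because the libraries carried no molecular identifiers, reads may repeat a molecule.

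BMPs are secreted growth factors that bind paired type I and type II serine/threonine kinase receptors and signal through SMAD1, SMAD5 and SMAD9 (SMAD8). Activins use related receptors and signal through SMAD2 and SMAD3. Noggin, gremlins and chordin-type proteins bind BMPs outside the cell and keep them from their receptors, follistatins bind activins most tightly, and BAMBI is a receptor-like protein without a kinase domain. In the limb and ribs BMP signalling drives cartilage formation, and in newborn skin its antagonists take part in hair follicle development.

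The chondrocyte library held 18788599 counts and the fibroblast library 17563724. Levels are given as CPM, the field's usual unit of counts relative to library size, after scaling by trimmed mean of M-values (TMM), and a fold is the ratio of the scaled counts with counts under 3 set to 3. Every interval is a 95% interval. For a count of 0 in fibroblasts, the floor of 3 counts stands for 0.163 CPM. Most marker genes stood on the side of their label. *Col2a1*, the main cartilage collagen, had 1447098 counts in chondrocytes and 0 in fibroblasts, *Col11a1* had 211841 and 839, *Acan* had 148105 and 35, and *Col1a1*, *Col3a1* and *Col1a2* were 8.02-, 8.29- and 7.59-fold higher in fibroblasts. All 14 chondrocyte markers were over 2-fold higher in chondrocytes, and 10 of 12 dermal fibroblast markers were over 2-fold higher in fibroblasts. Of the other 2, *Dlk1* was 4.45-fold higher in chondrocytes (22110 and 5106 counts) and *Lum* 1.14-fold (3191 and 2881 counts).

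Of the 9 antagonist genes, *Bambi* and *Chrdl2* were over 2-fold higher in chondrocytes, *Grem1* and *Fstl3* were over 2-fold higher in dermal fibroblasts, and *Nog*, *Chrd*, *Chrdl1*, *Fst* and *Sostdc1* lay within 2-fold. For *Bambi*, *Chrdl2*, *Grem1* and *Fstl3* the whole counting interval lay beyond 2-fold. Over all 24421 rows, 7.73% were over 2-fold higher in chondrocytes and 10.1% in fibroblasts. Of the 14291 genes with at least 10 counts in a library, which include 8 of the 9 antagonists (all but *Sostdc1*), the shares were 11.8% and 16.2%, and the whole interval lay beyond 2-fold for 7.21% and 10.8%. The counts of 2 genes in each direction are too few to be set apart from these shares. The median log2 fold of the 8 antagonists was 0.34 in favour of chondrocytes, beside -0.00348 over the 14291 genes. In a bulk library, fewer cells of a type and less RNA per cell cannot be told apart.

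**Figure D1:**
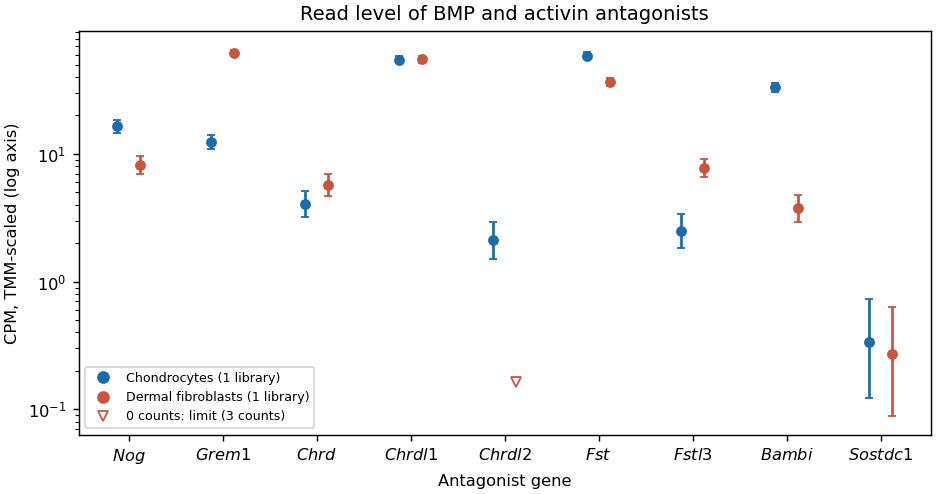
Each point is the CPM (TMM-scaled, log axis) of 1 antagonist gene in the chondrocyte library (blue) or the dermal fibroblast library (red), with its 95% Poisson counting interval; the open triangle marks 0 counts at the limit of 3 counts. The intervals are apart for *Nog*, *Grem1*, *Chrdl2*, *Fst*, *Fstl3* and *Bambi* and overlap for *Chrd*, *Chrdl1* and *Sostdc1*.

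*Grem1* encodes gremlin 1, a cystine-knot protein of the DAN family that binds BMP2, BMP4 and BMP7. The gene lies at chr2:113748675-113758648 (GRCm38.p6). It had 223 counts in chondrocytes, which is 12.4 CPM (10.9 to 14.2), and 1139 counts in fibroblasts, which is 61.9 CPM (58.3 to 65.6). It was 4.97-fold higher in fibroblasts (4.30 to 5.77), the largest difference of any antagonist in that direction. The other scalings gave 4.57- to 5.46-fold. *Grem1* took 6.73% of the antagonist counts in chondrocytes (5.90 to 7.64) and 34.5% in fibroblasts (32.9 to 36.2).

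*Fstl3*, at chr10:79777274-79782630, encodes follistatin-like 3, a relative of follistatin that binds activins and myostatin. It had 45 counts in chondrocytes (2.51 CPM, 1.83 to 3.36) and 143 counts in fibroblasts (7.77 CPM, 6.55 to 9.15). It was therefore 3.09-fold higher in fibroblasts (2.2 to 4.43), on few reads in either library. Its annotated span shares 1157 bp with *Prss57*, which had 1 and 2 counts.

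*Grem1* and *Fstl3* were the antagonists higher in fibroblasts by over 2-fold, and their promoters are shown for this reason. The RefSeq promoter table held 3 of the 9 genes (*Grem1*, *Fstl3* and *Chrd*). Printed are the 250 bases before the annotated start, 5′ to 3′ on the strand of the gene, from chr2:113758649-113758898 (minus strand) and chr10:79777024-79777273 (plus strand) of GRCm38.p6. Capitals mark matches, on either strand, to GGCGCC (a GC-rich SMAD-binding motif), GGGCGG (the GC box), ACAAT (the core of SOX motifs) and TATAAA (the TATA box).
Grem1: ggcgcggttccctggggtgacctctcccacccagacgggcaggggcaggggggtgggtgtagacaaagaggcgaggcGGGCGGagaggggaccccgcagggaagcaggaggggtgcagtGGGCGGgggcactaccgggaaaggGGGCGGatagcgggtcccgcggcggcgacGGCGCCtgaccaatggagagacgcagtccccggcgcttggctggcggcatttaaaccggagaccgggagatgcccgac
Fstl3: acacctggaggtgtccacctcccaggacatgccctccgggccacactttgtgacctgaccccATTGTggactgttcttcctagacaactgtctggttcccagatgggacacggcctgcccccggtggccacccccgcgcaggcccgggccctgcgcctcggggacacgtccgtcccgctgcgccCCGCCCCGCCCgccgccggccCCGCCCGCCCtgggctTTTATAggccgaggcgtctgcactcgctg
The *Grem1* window held 1 GGCGCC and 3 GGGCGG, and neither ACAAT nor TATAAA. The *Fstl3* window held 4 GGGCGG, 1 ACAAT and 1 TATAAA, and no GGCGCC. No base of either window belonged to more than 1 of the motifs. Of 32851 promoter windows of this length, 9.59% held GGCGCC, 32.7% GGGCGG, 27.7% ACAAT and 12.4% TATAAA. Both windows were rich in G and C, at 72.0% for *Grem1* and 71.2% for *Fstl3*, against a median of 52.4%. The window of *Chrd*, which lay within 2-fold, held 1 GGCGCC and 4 GGGCGG and was 78% G and C. It held neither ACAAT nor TATAAA. This window (chr16:20732877-20733126, plus strand) lies inside the annotated span of *Chrd* (chr16:20731425-20742384), whereas those of *Grem1* and *Fstl3* lie just outside theirs. A high share of G and C and GGGCGG were thus common to all 3 windows, and GGCGCC to those of *Grem1* and *Chrd*. *Chrd* was itself 1.40-fold higher in fibroblasts, and no window of a gene higher in chondrocytes was compared. Whether these features are particular to the genes higher in fibroblasts was therefore not tested. These matches describe the sequence only, and no binding was measured at these genes here.

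*Bambi* differed most among the antagonists that were well counted in both libraries. It encodes the pseudoreceptor that resembles a type I receptor, and it is itself a target of BMP signalling. It had 595 counts in chondrocytes (33.2 CPM, 30.6 to 36.0) and 69 counts in fibroblasts (3.75 CPM, 2.92 to 4.74). It was 8.86-fold higher in chondrocytes (6.89 to 11.5), and between 8.06- and 9.64-fold under the other scalings. *Bambi* made up 18.0% of the antagonist counts in chondrocytes (16.7 to 19.3) and 2.09% in fibroblasts (1.63 to 2.64). It lies at chr18:3507011-3516404.

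*Chrdl2*, at chr7:100006404-100034728, encodes chordin-like 2, a chordin relative with von Willebrand factor type C domains. It had 38 counts in chondrocytes (2.12 CPM, 1.5 to 2.91) and 0 counts in fibroblasts. It was 13-fold higher in chondrocytes with the floor of 3 counts, with an interval that starts at 10.1 and has no upper end. This fold depends on the floor, at 39.0-fold with 1 count and 3.90-fold with 10 counts, and a pseudocount of 1 gave 40.1-fold. The 38 counts make *Chrdl2* one of the less abundant antagonists of the chondrocyte library. In fibroblasts the floor of 3 counts stands for 0.163 CPM, and the Poisson interval of the 0 counts ends at 0.200 CPM.

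*Chrdl1*, at chrX:143285674-143394263, encodes chordin-like 1 (ventroptin, neuralin), which binds BMP4. In contrast to *Chrdl2*, it had 983 counts in chondrocytes (54.8 CPM, 51.5 to 58.4) and 1010 in fibroblasts (54.9 CPM, 51.5 to 58.4). The fold was 1.0 (0.915 to 1.09), and between 0.910 and 1.09 under the other scalings. The counting intervals of the libraries overlapped for *Chrdl1*, whereas *Chrdl2* was counted in 1 of the libraries.

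*Chrd*, at chr16:20731425-20742384, encodes chordin, the founding member of the family, whose complex with BMPs is opened by tolloid proteinases. It had 73 counts in chondrocytes (4.07 CPM, 3.19 to 5.12) and 105 counts in fibroblasts (5.70 CPM, 4.66 to 6.90). It was 1.40-fold higher in fibroblasts (1.03 to 1.91), and from 1.29- to 1.54-fold under the other scalings. Its span shares 3087 bp with *Thpo*, which had 4 and 18 counts. Without a stated strand setting, reads from the shared stretch cannot be assigned with certainty.

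*Nog* encodes noggin, which binds BMP2, BMP4 and BMP7 as a dimer and is required for normal cartilage and joint formation. The gene is a single exon at chr11:89300638-89302559. It had 295 counts in chondrocytes (16.5 CPM, 14.6 to 18.4) and 152 counts in fibroblasts (8.26 CPM, 7.0 to 9.68). Its fold was 1.99 (1.63 to 2.44), just inside the 2-fold threshold, and it crossed the threshold with the upper quartile (2.04), with totals that leave out the 10 most abundant genes (2.06) and with *Actb* (2.17). With total counts it was 1.81.

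*Fst* encodes follistatin, which binds activins nearly irreversibly and some BMPs more weakly. The gene, at chr13:114452262-114458989, had 1056 counts in chondrocytes (58.9 CPM, 55.4 to 62.6) and 675 counts in fibroblasts (36.7 CPM, 34.0 to 39.5). It was 1.61-fold higher in chondrocytes (1.46 to 1.77), so the difference exceeded the counting error but not the 2-fold threshold. *Fst* and *Fstl3* thus lay on opposite sides of equality. *Fst* was 31.9% of the antagonist counts in chondrocytes and 20.5% in fibroblasts. Its span shares 2486 bp with the noncoding gene *Gm41074*, which has no row in the table.

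*Sostdc1*, at chr12:36314169-36318452, encodes a sclerostin-related protein (ectodin, USAG-1, Wise) that binds BMPs and modulates WNT signalling. It had 6 counts in chondrocytes and 5 in fibroblasts. The fold of 1.23 has an interval from 0.313 to 5.11, so a difference was not detectable at this depth.

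**Figure D2:**
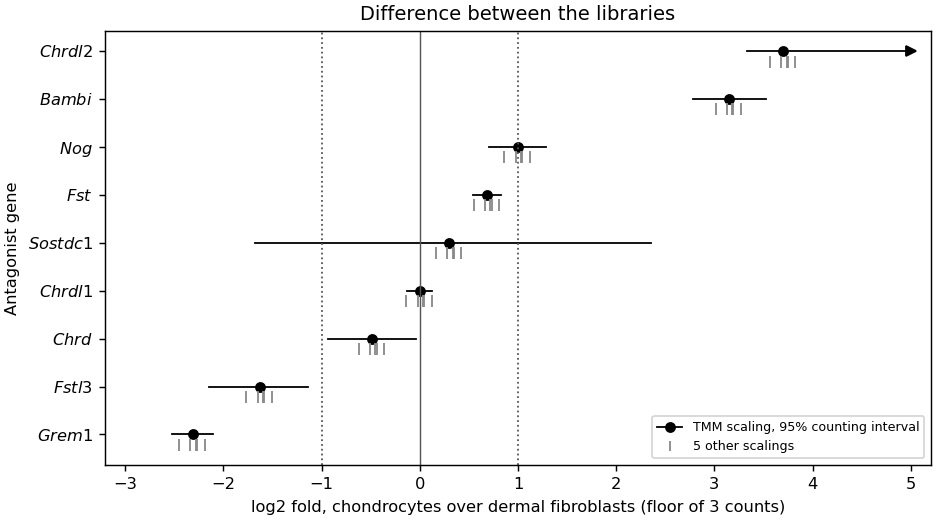
Points give the log2 fold of each antagonist gene, chondrocytes over dermal fibroblasts, with TMM scaling and a floor of 3 counts; lines are 95% counting intervals (an arrow has no upper end), grey ticks are 5 other scalings and dotted lines mark 2-fold. *Grem1* and *Fstl3* lie left of the 2-fold line, *Chrdl2* and *Bambi* right of it, and *Nog* lies on it.

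**Figure D3:**
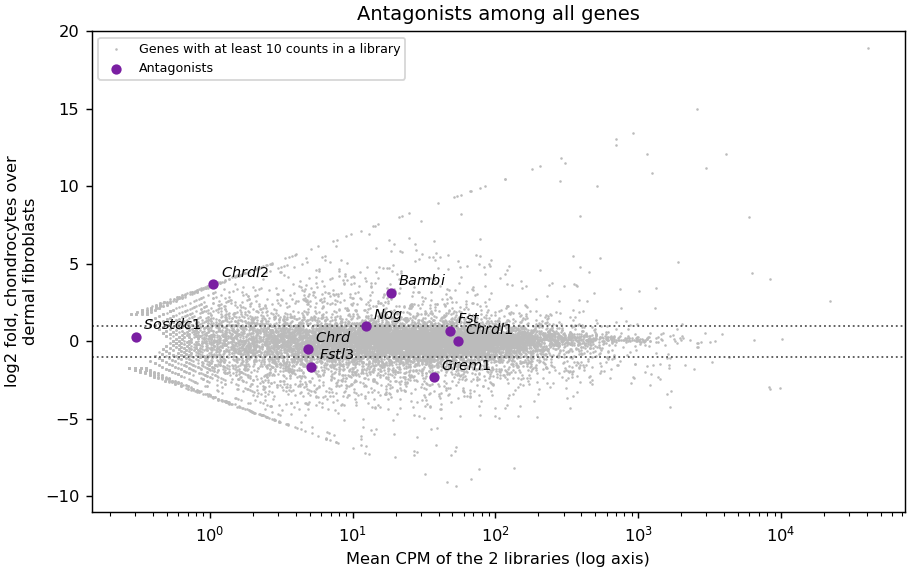
The mean CPM of both libraries (log axis) is set against the log2 fold of each of 14291 genes with at least 10 counts in a library (grey) and of the 9 antagonists (purple). *Bambi*, *Chrdl2*, *Grem1* and *Fstl3* lie beyond the dotted 2-fold lines, and *Chrdl2* lies on the upper edge that genes with 0 fibroblast counts form.

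The 9 antagonists together had nearly equal counts in the libraries, 3314 in chondrocytes and 3298 in fibroblasts. This is 185 and 179 CPM, a ratio of 1.03 (0.983 to 1.08), and the ratio ran from 0.939 with total counts to 1.12 with *Actb*. The sum rested on opposite differences of single genes. Without *Grem1* the ratio was 1.47 (1.39 to 1.55), without *Bambi* it was 0.865 (0.822 to 0.910), and without *Fst* it was 0.884 (0.835 to 0.936). The make-up of these reads differed more than their number. *Fst*, *Chrdl1* and *Bambi* had the most antagonist counts in chondrocytes, and *Grem1*, *Chrdl1* and *Fst* had the most in fibroblasts.

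**Figure D4:**
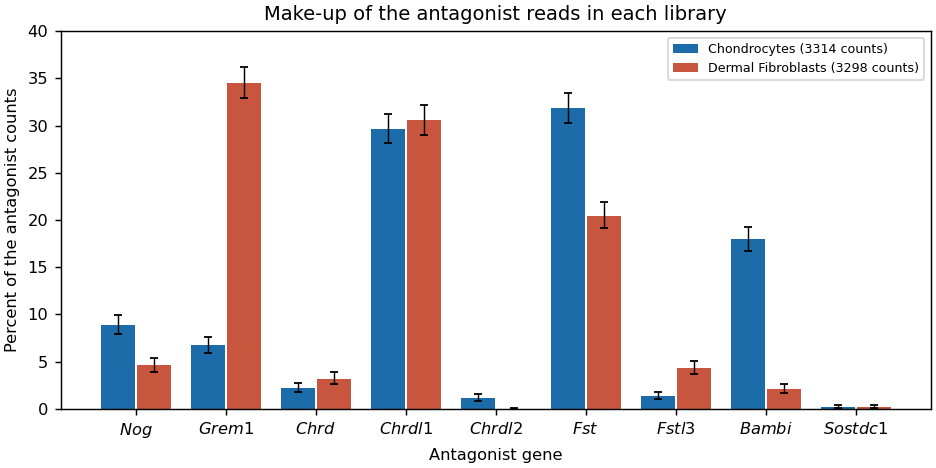
Bars give each gene's percent of the antagonist counts in the chondrocyte library (blue, 3314 counts) and the dermal fibroblast library (red, 3298 counts), with 95% Clopper-Pearson intervals; the interval of *Chrdl2* in fibroblasts is the limit of 3 counts. *Grem1* goes from 6.73% to 34.5% and *Bambi* from 18.0% to 2.09%, while *Chrdl1* has 29.7% and 30.6%.

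Ratios of antagonists within a library do not depend on the scaling. The pairs here and below were chosen after their values were seen, so large shifts were selected. Each shift restates the folds of its genes and is no further evidence. For each count of *Nog*, *Grem1* had 0.756 counts in chondrocytes and 7.49 in fibroblasts, a 9.91-fold shift (7.72 to 12.7). For each count of *Grem1*, *Bambi* had 2.67 counts in chondrocytes and 0.0606 in fibroblasts, a 44.0-fold shift (32.8 to 59.5). The ratio of *Fst* to *Fstl3* was 23.5 in chondrocytes and 4.72 in fibroblasts, which is a 4.97-fold shift (3.48 to 7.21). The ratio of *Nog* to *Chrd* was 4.04 and 1.45, a 2.79-fold shift (1.92 to 4.06). The ratio of *Chrdl1* to *Chrd* was 13.5 and 9.62, and its shift of 1.40-fold (1.01 to 1.94) reached close to equality.

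Divided by exon length, the levels gave another order than the counts. In chondrocytes *Fst* led at 21.9 RPKM (the scaled CPM per kilobase of exon), followed by *Nog* at 8.56, *Chrdl1* at 8.12, *Bambi* at 6.59 and *Grem1* at 3.0 RPKM. *Chrdl2* (1.23), *Fstl3* (1.03), *Chrd* (0.698) and *Sostdc1* (0.191 RPKM) came last. The neighbours *Nog* and *Chrdl1*, *Chrdl2* and *Fstl3*, and *Fstl3* and *Chrd* did not differ beyond their counting intervals. In fibroblasts *Grem1* (14.9 RPKM) and *Fst* (13.6 RPKM) led and did not differ beyond the interval of their ratio (0.993 to 1.20). *Chrdl1* (8.12), *Nog* (4.30), *Fstl3* (3.18), *Chrd* (0.977), *Bambi* (0.744) and *Sostdc1* (0.155 RPKM) followed, and *Chrdl2* was at 0. *Chrd* and *Bambi*, and *Sostdc1* and *Chrdl2*, did not differ beyond their intervals there. With the longest transcript in place of the union of exons, *Chrdl1* reached 13.4 RPKM in both libraries, was second to *Fst* in chondrocytes, and *Fst* (15.7 RPKM) and *Grem1* again did not differ beyond the interval of their ratio in fibroblasts (0.955 to 1.16).

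With 2 libraries, the pattern of a gene is a single ratio. Among 4957 genes with a mean CPM within 2-fold of *Grem1*, those nearest to it in log2 fold were *Mfap2*, *Itga4* and *Ube2l6*, which were 4.96-, 4.99- and 4.95-fold higher in fibroblasts. For *Fst*, the antagonist with the most counts in chondrocytes, they were *Rrp15*, *Pmf1* and *Parp2*, each 1.61-fold higher in chondrocytes among 4845 genes.

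The antagonists were set beside other genes of the pathway. Among 16 further extracellular antagonists and modulators with at least 10 counts in a library, 3 were over 2-fold higher in chondrocytes and 7 in fibroblasts. Their median log2 fold was -0.26. All 22 genes of this list summed to 2579 CPM in chondrocytes and 5572 CPM in fibroblasts, unlike the near-equal sum above. *Fstl1* (772 and 2515 CPM) and *Fbn1* (1027 and 2128 CPM) were the largest parts. *Nbl1* (DAN) was 2.48-fold, *Kcp* 3.92-fold, *Rgmb* 2.59-fold, *Htra1* 5.15-fold, *Fstl1* 3.26-fold and *Fbn1* 2.07-fold higher in fibroblasts, and with *Actb* scaling *Fbn1* fell inside 2-fold. *Crim1* (4.91-fold), *Smoc1* (3.82-fold) and *Smoc2* (2.43-fold) were higher in chondrocytes. Like *Grem1* and unlike *Chrdl2*, the tolloid-type proteinase *Bmp1*, which cleaves chordin, was higher in fibroblasts, by 4.63-fold. *Pcolce* (2.83-fold) and *Sfrp2* (5.69-fold), listed as partners of such proteinases, were also higher there. The tolloid-type *Tll1* (49 and 90 counts) was 1.79-fold higher in fibroblasts, within 2-fold. Of the 4 proteinases and partners with at least 10 counts, 3 were over 2-fold higher in fibroblasts and 0 in chondrocytes. Their median log2 fold was -1.86.

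The ligands of these antagonists differed more than the antagonist sum. Of 10 BMP and GDF ligands with at least 10 counts, 6 were over 2-fold higher in chondrocytes and 1 in fibroblasts (median log2 fold 2.2), and all 18 ligands of the list summed to 175 CPM in chondrocytes and 30.7 CPM in fibroblasts. *Bmp5* (966 and 13 counts) was 76.3-fold higher in chondrocytes, *Gdf5* (114 and 4 counts) 29.3-fold (11.7-fold with a floor of 10 counts), *Bmp2* 7.87-fold, *Bmp7* 7.14-fold, *Gdf10* 5.19-fold and *Bmp6* 4.07-fold. The ratio of *Nog* to *Bmp5* counts was 0.305 in chondrocytes and 11.7 in fibroblasts. Of 6 activin-type ligands, 2 were over 2-fold higher in chondrocytes and 3 in fibroblasts (median -0.59). The activin subunits *Inhbb* (140 and 1574 counts, 10.9-fold) and *Inhba* (199 and 568 counts, 2.78-fold) and *Gdf11* (2.84-fold) were higher in fibroblasts, and *Inhbe* (34 and 0 counts) and *Mstn* (31 and 4 counts) were higher in chondrocytes. For each count of *Inhbb*, the activin antagonist *Fst* had 7.54 counts in chondrocytes and 0.429 in fibroblasts, a 17.6-fold shift (14.4 to 21.6), and for each count of *Inhba* it had 5.31 and 1.19.

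Receptors and SMADs lay closer to equality than *Bambi*. Of 11 receptors and coreceptors, 1 was over 2-fold higher in chondrocytes (*Bmpr1b*, 2.05-fold, but 1.87-fold with total counts) and 4 in fibroblasts (median -0.60). The type I receptor *Bmpr1a* had 2241 and 2200 counts, and the type II receptor *Bmpr2* had 1828 and 2040. *Acvr2a* (2.12-fold), *Acvrl1* (3.65-fold) and the coreceptor *Tgfbr3* (3.84-fold) were higher in fibroblasts, and with *Actb* scaling *Acvr2a* fell inside 2-fold. Of 8 SMADs, *Smad9* (6.07-fold), *Smad6* (3.41-fold) and *Smad7* (2.12-fold) were over 2-fold higher in chondrocytes and 0 in fibroblasts (median 0.15). *Smad7* was 1.93-fold higher with total counts, inside the threshold. *Smad3*, *Smad4* and *Smad5* had 1289 and 1288, 1356 and 1616, and 1728 and 1684 counts.

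*Bambi* is a known BMP target, and most other targets of the list were also higher in chondrocytes. Of 12 target genes other than the antagonists, 9 were over 2-fold higher in chondrocytes and 0 in fibroblasts, with a median log2 fold of 2.07. This list shares *Smad6*, *Smad7* and *Smad9* with the SMADs. *Id1*, *Id2* and *Id3*, which encode inhibitors of basic helix-loop-helix factors, were 6.16-, 5.73- and 3.95-fold higher, and *Atoh8* was 9.71-fold higher. *Id4* was 1.38-fold higher in fibroblasts (1.21 to 1.57). *Bambi* had 0.310 counts for each count of *Id1* in chondrocytes and 0.216 in fibroblasts, a 1.44-fold shift (1.09 to 1.92). Against *Smad7* the shift was 4.19-fold (3.15 to 5.61). The planned list of targets also held *Nog* and *Grem1*. Of these, *Nog* lay within 2-fold and *Grem1* was 4.97-fold higher in fibroblasts, against the direction of most targets.

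**Figure D5:**
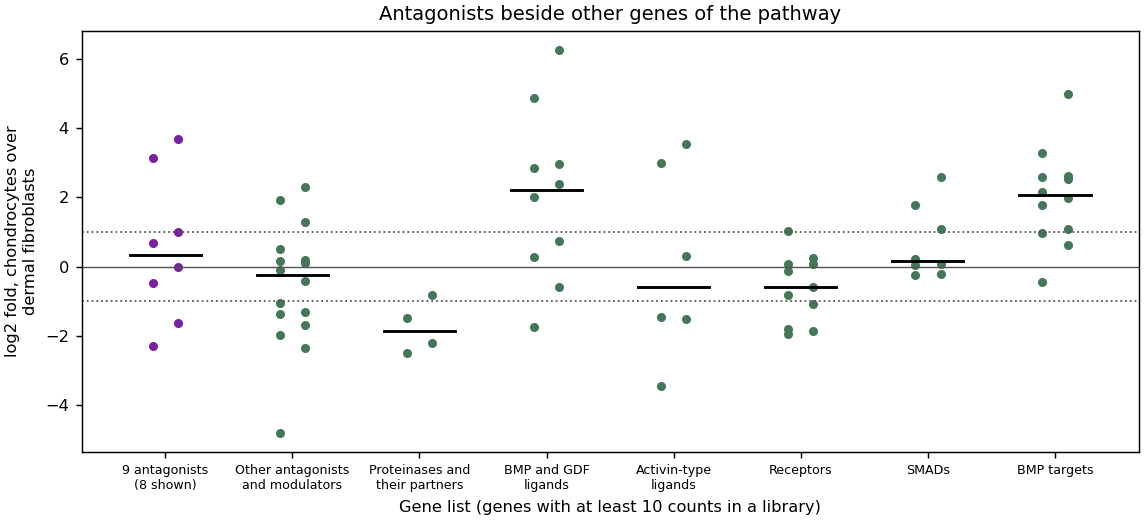
Each point is the log2 fold, chondrocytes over dermal fibroblasts, of 1 gene with at least 10 counts in a library, for 8 of the 9 antagonists (purple) and for lists of other pathway genes (green); *Smad6*, *Smad7* and *Smad9* stand in 2 of the lists. Bars are medians (0.34 for the antagonists, 2.2 for BMP and GDF ligands, 2.07 for BMP targets) and dotted lines mark 2-fold.

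Markers of other cell types also differed between the libraries, and their part in the values above was not tested. The summed level of 13 keratinocyte and hair placode genes was 10.5 CPM in chondrocytes and 472 CPM in fibroblasts, where *Krt14* had 1939 counts, *Krt5* 1693 and *Lgr5* 2831. *Shh* was at 0 in both libraries. Of 13 dermal papilla and sheath genes, 7 were over 2-fold higher in fibroblasts (*Crabp1*, 11 and 1786 counts) and 4 in chondrocytes (*Ptch1* 5.15-fold, *Rspo3* 3.75-fold). Endothelial (15.5 and 53.5 CPM over 7 genes, with *Kdr*, *Cdh5* and *Pecam1* at 70 and 276, 68 and 198, and 70 and 120 counts) and macrophage sums (115 and 203 CPM over 7 genes, *Lyz2*, *Cd68* and *Mrc1*) were higher in fibroblasts. Muscle genes summed to 1859 and 1304 CPM over 10 genes (*Actc1*, *Myh3* and *Acta1*). These named muscle genes lay within 2-fold, but 6 of the 10 were over 2-fold higher in chondrocytes and 0 in fibroblasts. Hypertrophic chondrocyte genes summed to 1445 and 339 CPM (*Col10a1*, *Spp1*, *Pth1r*). Of these 8 genes, 6 were over 2-fold higher in chondrocytes and 0 in fibroblasts, and *Pth1r* (1439 and 1581 counts) lay within 2-fold. Perichondrium and joint genes summed to 260 and 227 CPM (*Thbs4*, *Dkk3*, *Tnn*). Of these 9 perichondrium and joint genes, 6 were over 2-fold higher in chondrocytes and 1, *Dkk3* (174 and 3461 counts), in fibroblasts. Of 9 Schwann cell and melanocyte genes with at least 10 counts, 6 were over 2-fold higher in fibroblasts (such as *Erbb3*) and 1 in chondrocytes (*S100b*, which cartilage also expresses). Of 6 osteoblast genes with at least 10 counts, 5 were over 2-fold higher in chondrocytes (*Alpl*, *Ibsp*) and 1, *Col1a1*, in fibroblasts.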

How the data were processed

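Whole-number counts per gene symbol, which the authors deposited without scaling, were analysed for 1 library of primary chondrocytes and 1 of primary dermal fibroblasts. Per the labels and the study's methods, stranded mRNA libraries were read as single ends, base calls were made with CASAVA 1.8.2, and reads were mapped to mm10 with TopHat2 2.0.13, Bowtie2 2.2.3 and SAMtools 0.1.19. The counting program, its annotation and its strand setting are not given in the sources used here. In 27 rows the symbol had become a date, and these rows were not named. No value column was left unassigned (0).

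Counts were scaled by TMM (edgeR 4.0.16, R 4.3.3) over the whole table. Folds have Clopper-Pearson intervals, levels have Poisson intervals, and ratios within a library have exact conditional intervals, all at 95% (Python 3.11.15, scipy 1.17.1). No p-value was computed. Alternatives were total counts, DESeq2 1.42.0 size factors, the upper quartile, totals without the 10 most abundant genes, *Actb*, a floor of 1 or of 10 counts, an added pseudocount (1), a filter at 10 counts, a fold over 4 and an interval beyond 2-fold. The calculations were tested on simulated counts. Exon lengths are from GENCODE vM1 (NCBIM37), and positions are from RefSeq (GRCm38.p6), the build of mm10.

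The genes and lists were chosen with earlier results of these data known, and the pairs for within-library ratios after their values were seen. Named besides the 9 genes are the 3 most abundant genes of each list, pathway genes over 2-fold with at least 100 counts, and the 3 genes nearest in log2 fold to the most counted antagonist of each library. *Inhbe*, *Mstn*, *Shh*, *Dlk1*, *Lum*, *Id4*, *Tll1* and the overlapping genes were named after their values were seen. Some genes that the naming rule picks are not reported here.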

Additional observations from a re-analysis of the deposited data

How the results depend on the processing

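No paired analysis was possible because there was a single library of either kind, and for the same reason no library could be left out. The number of antagonists over 2-fold higher in dermal fibroblasts was 2 under each scaling, floor, pseudocount and filter tried, and 1 (*Grem1*) with a fold over 4. The number higher in chondrocytes was 2, or 3 with *Nog* under the upper quartile, the totals without the 10 most abundant genes and *Actb*. Of 80 recomputed folds of the 9 antagonists, 2 lay outside the counting interval of the reported fold. These were *Chrdl1* with total counts (0.910) and *Chrdl2* with a floor of 10 counts (3.90-fold). Of 773 recomputed folds of 86 named genes, 76 lay outside that interval and 0 reversed a difference of over 2-fold. *Bmpr1b* and *Smad7* fell inside 2-fold with total counts, and *Acvr2a* and *Fbn1* with *Actb*. Over all genes, 1887 were over 2-fold higher in chondrocytes and 2468 in fibroblasts. With a pseudocount of 1 they were 2876 and 2846, with total counts 1583 and 2847, and with *Actb* 2139 and 2258. A threshold of 4-fold left 713 and 929, and requiring the counting interval to clear 2-fold left 1041 and 1546, since stricter rules leave fewer genes by construction. Relative to TMM, total counts moved all log2 folds by -0.14 and *Actb* by 0.12. Depth limits *Sostdc1*, *Chrdl2* and *Fstl3* most.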
